A study of Macaca fascicularis with 2 samples.

Results

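The cells described here are germ cells of the cynomolgus monkey testis that carried RNA of both spermatogonia and the switch to differentiation. Members were chosen by their own UMI counts (a UMI counts 1 captured RNA molecule) among barcodes with at least 500 detected genes. A cell first had to pass a spermatogonial gate, with at least 3 of UTF1, PIWIL4, ELAVL2, DMRT1, L1TD1, MAGEA4 and NANOS3 present, their sum at 5 or more per 10000 UMIs, and the stromal gene DCN below 15 per 10000. It then needed at least 2 UMIs of 4 switch genes together, KIT, STRA8, DMRTB1 and ESX1. These 11 genes made the selection, so their levels in members are a description. In all, 601 of 27353 barcodes with at least 500 genes qualified, 481 from the scrotal and 120 from the abdominal testis.

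The series is on artificial unilateral cryptorchidism: the testis of one side lay in the abdomen (UAT), and its counterpart on the other side stayed in the scrotum (CST). One droplet library of 3' RNA ends was made for each position, 12564 barcodes and 111047299 UMIs for UAT, 15952 barcodes and 197225937 UMIs for CST. Age, strain and the number of animals are not given in the sources used here, and the protocol describes dissociated tissue and names no sort of cells. Differences are therefore between 2 libraries or between cells of 1 library, without a replicate check. Intervals are exact 95% intervals (Poisson for a level, Clopper-Pearson for a share, conditional binomial for a ratio) and cover counting error only.

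Spermatogonia divide next to the basement membrane of the seminiferous tubule. Undifferentiated cells, which include the stem cells, keep the pool. Under retinoic acid they commit to differentiation, gain the receptor KIT, pass through further divisions and then start meiosis under STRA8 and its partner. DMRT1 and DMRTB1 are DM-domain transcription factors that hold germ cells in the mitotic programme and time its end in the mouse. ESX1 is a homeobox factor encoded on the X chromosome.

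Members took 76.2% of the spermatogonial gate in CST (481 of 631, interval 72.7 to 79.5) and 51.9% in UAT (120 of 231, 45.3 to 58.5). Of all barcodes with at least 500 genes they were 3.21% in CST and 0.972% in UAT. Depth differed, with a median of 14661 UMIs in CST members (2110 to 56356), 26577 in UAT members, and 7254.5 and 5964 in the remaining gate cells of CST and UAT. Mitochondrial genes took a median of 4.10% of UMIs in CST members and 7.49% in UAT members. After each gate cell was thinned to 3000 UMIs, 2 or more switch-gene UMIs were left in 294 of 590 CST cells (49.8%, 45.7 to 53.9) and in 17 of 202 UAT cells (8.42%, 4.98 to 13.1), with 41 and 29 shallower cells left out. The libraries shared 50 barcodes, 2 of CST members among them.

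DMRTB1 was present in 92.3% of CST members (444 of 481), ESX1 in 83.6%, KIT in 72.1% and STRA8 in 16.4%. In the same order, CST barcodes rich in DCN, which should lack these genes and had a median of 4795 UMIs, gave 6.63%, 1.40%, 1.44% and 0.273%. Most members therefore qualified through DMRTB1 and ESX1 together, both present in 375 of 481, and 9 qualified through KIT alone. All 4 genes were found in 50 members, 3 in 257, 2 in 127 and 1 in 47. A member held a median of 5 DMRTB1 UMIs (maximum 44), 3 of ESX1 (33), 1 of KIT (10) and 0 of STRA8 (13).

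Of the spermatogonial genes of the gate, ELAVL2 was present in 472 members, DMRT1 in 444, MAGEA4 in 436, UTF1 in 249, L1TD1 in 125, PIWIL4 in 122 and NANOS3 in 98. UTF1, PIWIL4 and NANOS3 mark undifferentiated cells in primates, and fewer CST than UAT members held them: UTF1 was present in 51.8% against 88.3%, PIWIL4 in 25.4% against 69.2% and NANOS3 in 20.4% against 45.8% (UAT members were deeper, and these genes are part of the gate). In CST, 65 members had just 2 switch-gene UMIs, and 75 gate cells with just 1 stayed outside. Those CST neighbours had close levels: MKI67, a proliferation marker, stood at 42.5 CPM (the usual scaled share of a group's summed UMIs) inside and 38.2 outside, ID4, a stem-cell regulator, at 416 and 385, and DMRT1 at 183 and 212. In UAT the 41 members with just 2 UMIs and the 38 cells with just 1 stood farther apart, at 120.4 and 44.4 CPM for MKI67 and 250.4 and 176 for DMRT1, with median depths of 17197 and 7910 UMIs. At the other limit, 13 members had a gate-gene sum of 5 to 6 per 10000 UMIs, and 18 cells at 4 to 5 met the other limits.

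The switch-gene level per member was spread widely and had 2 modes in CST. The rule's cut at 2 UMIs sets the lower edge of this distribution, and the 150 CST gate cells below the cut are not in it. The shape of the lower mode is therefore partly set by the selection. The median level was 8.58 per 10000 UMIs in CST members (0.647 to 31.4) and 1.66 in UAT members (0.355 to 15.4). Members of CST were split evenly by this level into a low range (161 cells, 0.647 to 3.97), a middle range (160 cells, 4.01 to 12.4) and a high range (160 cells, 12.5 to 31.4). These are ranges of a score, not cell types, with 51 cells between 3 and 5 per 10000 at the lower boundary and 64 between 11 and 14 at the upper one. In UAT 102 of 120 members lay below 4.01, a few of them below the lowest CST member, and are called low-range too, and 18 (15.0%, 9.14 to 22.7) lay above it. Cells above it were 50.7% of the gate in CST and 7.79% in UAT.

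**Figure D1:**
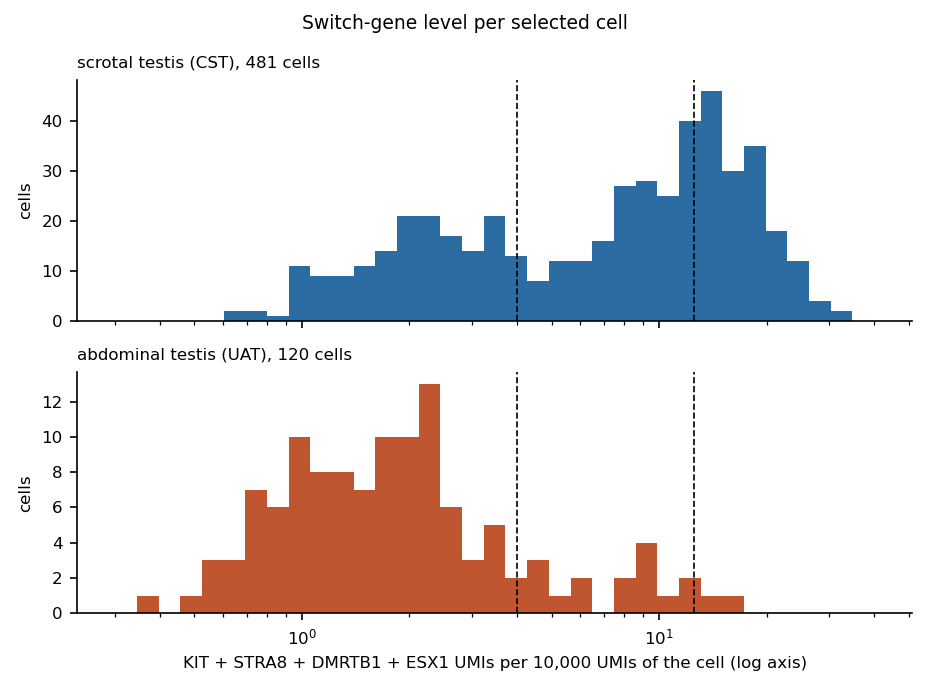
Number of selected cells (y axis) by switch-gene UMIs per 10000 UMIs of the cell (x axis, log), for 481 CST and 120 UAT cells; dashed lines mark the boundaries between the ranges of CST, near 4.01 and 12.5. The CST cells form a smaller mode below the first line and a larger one above it, whereas 102 of the 120 UAT cells lie below it. Gate cells with fewer than 2 switch-gene UMIs are not drawn, so the rule sets the lower edge.

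Members of CST as a whole were set against the 150 gate cells of CST with 0 or 1 switch-gene UMI, called the rest below. Genes were compared where both groups together had at least 30 UMIs and either had 20 CPM, which left 8827 genes without the rule's own. At least 2-fold higher in members were 775 genes (8.78%) and at least 2-fold lower 730 (8.27%). With TMM scaling, which shifted all log2 ratios by 0.22, the counts were 1300 and 434, so the split between higher and lower depends on the scaling. For gene lists a 1.5-fold limit was used, past which 20.5% of genes were higher and 19% lower. That is the background for the list counts of this comparison.

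Genes of cell division were higher in members. In the list of G2 and M phase genes, 23 of 25 measured were at least 1.5-fold higher in members and none lower (median log2 ratio 1.37, against 0.01 for all genes), and in the list of G1 and S phase genes 22 of 27 were higher and 1 lower (1.17). MKI67 stood at 435 CPM in members and 31.9 in the rest, a ratio of 13.6 (9.97 to 19.1). TOP2A, the topoisomerase of mitotic chromosomes, stood at 937 and 177 CPM (5.29, 4.63 to 6.07). ASPM, a spindle pole protein, stood at 253 and 28.8 CPM (8.81, 6.34 to 12.6). CDC6, which licenses replication origins, had a ratio of 6.64 (3.77 to 12.9), and TYMS, the enzyme of thymidylate synthesis, 5.84 (3.93 to 9.07). The largest ratios by the lower bound belonged to ACRC, which encodes the germ cell nuclear antigen, at 486 and 24.8 CPM (19.6, 13.8 to 28.9), then MKI67, PNMA5 (11.9) and CDKN2D, a cell cycle inhibitor (11.5, 6.69 to 21.7).

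Genes of the undifferentiated state lay on the other side. Of 18 measured, 14 were at least 1.5-fold lower in members and none higher (median log2 ratio -0.76). GFRA1, the receptor for the niche factor GDNF, was at 0.229 times the level of the rest (0.150 to 0.352), ID4 at 0.363 times (0.325 to 0.406) and the phosphatase gene DUSP6 at 0.324 times (0.271 to 0.388). MSL3, of a histone acetylation complex, stood at 402 CPM in the rest and 82.5 in members, and APOE, a lipid carrier, at 1256 and 294. PIWIL2, a Piwi protein that binds piRNAs, was at 0.320 times, and 5 of 17 piRNA pathway genes were lower with none higher. Growth factor receptors gave 6 lower and 1 higher of 12, with INSR at 0.306 times and BMPR1B at 0.397 times.

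Regulators named for differentiation were mixed. Outside the rule's genes, 7 of 13 were at least 1.5-fold higher and 2 lower. Their median log2 ratio was 0.94, and 0.40 to 1.15 under other settings. It stood at 0.40 against gate cells with no switch-gene UMI and at 0.44 with a cut of 3 UMIs, both under the 1.5-fold limit. SOHLH2, a bHLH factor of early differentiation, had a ratio of 2.81 (2.10 to 3.83), while its partner SOHLH1 stood at 199 CPM in members and 424 in the rest. DAZL, a translational regulator of germ cells, had a ratio of 2.36 (2.06 to 2.71). Among DNA methylation genes, DNMT1, which copies methylation at replication, had a ratio of 5.08 (3.90 to 6.73), and DNMT3L, a cofactor of new methylation, was at 0.0870 times (0.0594 to 0.126). Chromatin genes gave 9 higher and 1 lower of 21: CTCFL, the germline relative of CTCF, reached a ratio of 6.04 (4.52 to 8.25), and SCML2, a germline Polycomb protein, 3.93 (2.94 to 5.38). DNA repair genes gave 15 higher and none lower of 20, led by EXO1 (5.36) and BRCA1 (4.35, 3.26 to 5.92). In the KIT pathway downstream of the receptor, 2 of 13 were higher and 3 lower. Of 20 listed retinoic acid pathway genes, STRA8 is in the rule and RARA, a receptor, alone of the others reached the measurement limit, with a ratio of 1.12 (0.719 to 1.81).

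The low range went against the name differentiating, since it was close to the rest of the gate. Set against the rest, 102 of 8587 genes were at least 2-fold higher (1.19%) and 50 lower (0.582%), and at 1.5-fold 6.99% were higher and 5.05% lower. ID4 stood at 371 CPM in the rest and 301 in the low range, NANOS2 at 25.6 and 17.4, and 15 of 18 undifferentiated genes measured were within 1.5-fold. UTF1 stood at 510 and 392, but the gate used it to pick both groups. CTCFL stood at 37.5 and 31.4 CPM, MEIOC at 34.3 and 30.8, and CCND1 at 49.5 and 50.8. Cell cycle genes were the exception: G2 and M phase genes gave 14 higher of 23 and G1 and S phase genes 12 of 25, with none lower in either list. MKI67 had a ratio of 3.98 (2.87 to 5.66), TYMS 2.48 (1.61 to 3.95), MCM3, a subunit of the replicative helicase, 2.11 (1.62 to 2.78) and CCND2, a D-type cyclin of spermatogonia, 1.68 (1.40 to 2.01). The direction of CCND2 turned when cells were thinned before selection (log2 ratio -0.34). DNMT3L was at 0.187 times (0.124 to 0.277). Depth was not equal here, with medians of 17321 UMIs in the low range and 7254.5 in the rest, and its part in the difference was not tested. After thinning to 3000 UMIs, MKI67 was present in 29 of 161 low-range cells (18.0%) and 9 of 114 rest cells (7.89%), with overlapping intervals (12.4 to 24.8 and 3.67 to 14.5), against 42.9% and 18.7% unthinned.

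The high range differed from the low range in 1222 genes at least 2-fold higher (13.6% of 8992) and 1848 lower (20.6%). TMM scaling gave 1919 and 1524. At 1.5-fold 27.5% were higher and 28.6% lower. Across rest, low, middle and high, ID4 stood at 371, 301, 58.9 and 3.69 CPM and GFRA1 at 31.9, 18.4, 0.848 and 0. UTF1, which the gate used, stood at 510, 392, 69.9 and 18.4. Of 16 undifferentiated genes measured, 12 were lower in the high range and none higher (median log2 ratio -1.43). NKX6-2, a homeobox factor, stood at 171 CPM in the low and 1.23 in the high range, the receptor gene BMPR1B at 110 and 0.819, DUSP6 at 119 and 1.64, and the cell surface gene THY1 at 50.5 and 0.410.

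The D-type cyclins stood in opposite order at the ends of this range. CCND2 stood at 124, 208, 6.78 and 6.55 CPM from rest to high range, and CCND1 at 49.5, 50.8, 226 and 293. Between the high and low ranges CCND2 was at 0.0316 times (0.0179 to 0.0517) and CCND1 at 5.77 times (4.84 to 6.92). Among cell cycle inhibitors, CDKN1B stood at 46.3, 36.1, 5.93 and 2.46 CPM, while CDKN2D stood at 10.4, 15.7, 170 and 198. MKI67 stood at 31.9, 127, 423 and 823 CPM, and 23 of 25 G2 and M phase genes and 22 of 27 G1 and S phase genes were higher in the high than the low range (0 and 2 lower). In cells thinned to 3000 UMIs, MKI67 was present in 18.0% of the low, 46.5% of the middle and 72.2% of the high range (42.9%, 68.1% and 87.5% unthinned).

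Regulators and chromatin genes are given in the same order, from the rest to the high range. DMRT1, which the gate used, stood at 188, 236, 589 and 893 CPM, SOHLH2 at 39.1, 52.8, 145 and 146, and SOHLH1 at 424, 276, 150.5 and 151. CTCFL stood at 37.5, 31.4, 301 and 393, with a ratio of high to low range of 12.5 (10.1 to 15.6). SCML2 stood at 37.5, 58.5, 184 and 221 CPM, DNMT1 at 45.5, 98.3, 244 and 381, EZH2, the methyltransferase of Polycomb, at 104, 108, 199 and 324, and DNMT3L at 67.9, 12.7, 1.70 and 1.64. Among other genes, PNMA5 had a ratio of high to low range of 14.3 (11 to 18.7), ACRC 12.4 (10.8 to 14.2) and MEIOC, which holds germ cells in the meiotic programme, 8.55 (6.86 to 10.8). DNA repair genes gave 17 higher and none lower of 20, and genes of ribosome biogenesis 13 higher and 1 lower of 17, with NCL, the nucleolar protein nucleolin, at 959 and 1962 CPM.

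Metabolic, piRNA, RNA-binding and stress genes went in both directions, beside the 27.5% of all genes that were higher and 28.6% lower. In the high range 9 of 14 glycolysis genes were lower and 2 higher (median log2 ratio -0.85, a sign that turned when cells were thinned), with TPI1 at 0.125 times (0.0876 to 0.174) and PKM at 0.175 times (0.104 to 0.281). PGK1, a glycolytic gene on the X chromosome, stood at 125 CPM in the low and 250 in the high range. Of 20 nuclear genes of oxidative phosphorylation 5 were higher and 2 lower, with a median (0.04) like that of all genes (0.04). The piRNA pathway gave 7 lower and 1 higher of 17, with TDRD1, a scaffold of the pathway, at 0.195 times (0.160 to 0.235). Germline RNA-binding proteins gave 8 lower and 2 higher of 15, a median that also changed sign with thinning: IGF2BP1 was at 0.0826 times, IGF2BP3 at 0.0620 times and DAZL at 2.99 times (2.72 to 3.30). Heat-shock proteins and co-chaperones gave 6 lower and 2 higher of 19, with a median (-0.06) near that of all genes. Among them HSPH1, a large heat-shock protein, was at 0.178 times (0.145 to 0.218). The cold-inducible genes RBM3 and CIRBP had ratios of 1.83 (1.71 to 1.97) and 1.88 (1.76 to 2.01).

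**Figure D2:**
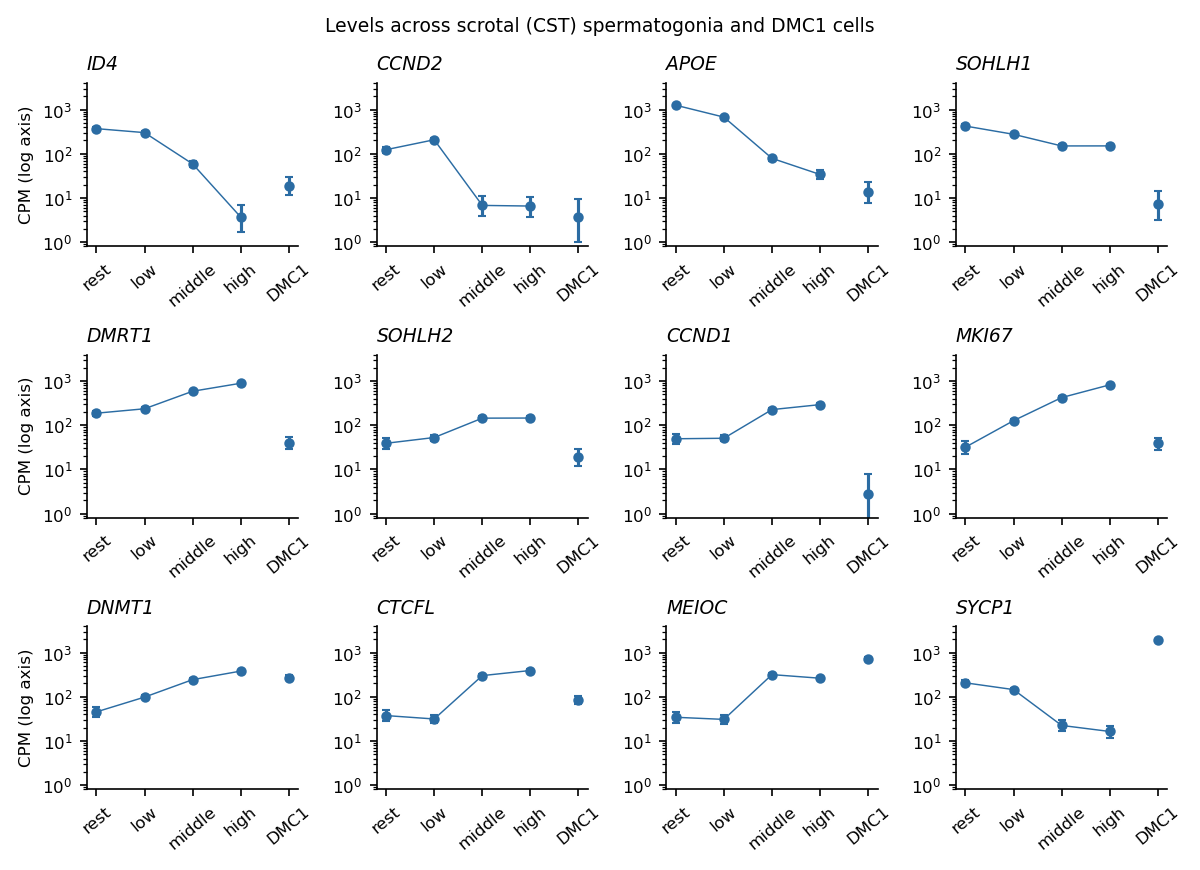
Levels in CPM (y axis, log) of 12 genes in CST cells summed over the rest of the gate, the low, middle and high ranges of members, and cells with at least 2 DMC1 UMIs; bars are exact 95% Poisson intervals. ID4 and CCND2 are lower and CTCFL, MEIOC and CCND1 higher in the middle than in the low range, and SYCP1 stands at 1954 CPM in the DMC1 cells.

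The middle and high ranges differed less, with 168 genes at least 2-fold higher in the middle range (2.10% of 8003) and 57 lower (0.712%), or 103 and 94 with TMM scaling. At 1.5-fold 7.72% were higher and 3.67% lower. By the naming rule the lowest was H2AC12, a core histone gene, which stood at 66.1 CPM in the middle and 367 in the high range. The linker histone genes stood lower too, H1-1 at 158 and 530, H1-2 at 159 and 624, H1-3 at 106 and 360 and H1-4 at 192 and 549. In the low range the same 5 genes stood between 70.2 and 298 CPM. Of the G2 and M phase list 14 of 25 were lower in the middle range and none higher. The middle range was higher in REC8, a meiotic cohesin (106 and 46.7 CPM, ratio 2.27, 1.81 to 2.86), in STK31, a Tudor-domain kinase of germ cells (2.26) and in TSPYL2 (1.81). For STK31 and TSPYL2 that direction turned when cells were thinned before selection. STRA8 was found in 6 of 161 low-range, 50 of 160 middle-range and 23 of 160 high-range cells, at 2.34, 64.0 and 27.4 CPM. It counts toward the level that made the ranges, so its scarcity in the low range is partly set by the split.

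Spermatid RNA was present in every one of these groups and was uneven. The 12 spermatid markers together stood at 10268 CPM in the rest, 21248 in the low, 7539 in the middle and 3136 in the high range, and at 24.0 in UAT members. A few cells held most of it, since PRM1, a protamine, exceeded 1% of UMIs in 20 members (13, 5 and 2 from low to high range), while the median member had 726 CPM. Without those 20 cells the ranges stood at 2158, 2022 and 1806 CPM and the rest, without 7 such cells, at 3368. In the same cells MKI67 stood at 137, 418 and 834 CPM and ID4 at 323, 61.6 and 3.35. Of the markers of somatic cells, C1QB, NKG7 and CPA3 had no UMI in CST members. Macrophage markers summed to 26.4 CPM and those of T or NK cells to 5.78. Leydig markers summed to 10.0 CPM, stromal markers to 66.1, peritubular myoid markers to 95.2 and Sertoli markers to 73.8, of which SOX9 took 29.6. Among endothelial markers EGFL7 stood at 216 CPM, whereas PECAM1 and KDR stood at 3.59 and 2.05. The mast cell list holds KIT itself.

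Without the rule's genes, the first principal component of the 481 CST members (6915 genes, 8.42% of variance) still followed the switch-gene level. Its positive end was led by TOP2A, ACRC, SDF2L1, HMGB2 and CALR and its negative end by COPRS, ID4, KTN1, APOE and S100A10. SDF2L1 and CALR encode folding factors of the endoplasmic reticulum, and HMGB2 a chromatin protein of dividing cells. The score had a Spearman correlation of 0.774 with the switch-gene level and a Pearson correlation of 0.0176 with log UMIs over 481 cells that share 1 library. The cells fell into 2 groups of scores: 151 of 161 low-range cells were at or below 0, and 129 of 160 middle-range and 157 of 160 high-range cells were above. Within the groups the Spearman correlation of the score with the switch-gene level was 0.371 over the 296 cells above 0 and 0.159 over the 185 others, and that with UMIs 0.328 and 0.295. In the high range the correlation with UMIs was 0.532. Scores within 5 of 0 were found in 78 cells. Of 79 cells with a STRA8 UMI, 72 had a score above 0.

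**Figure D3:**
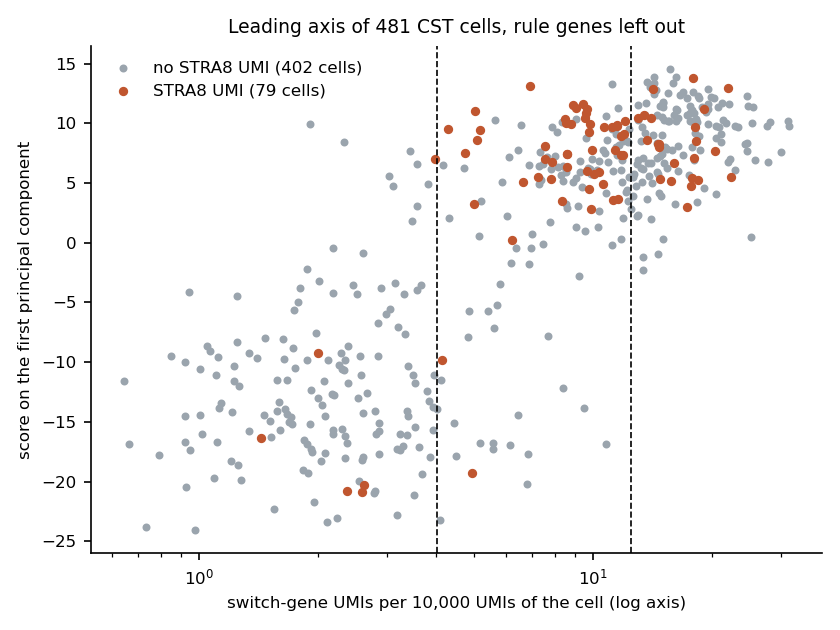
Score on the first principal component of 481 CST members, computed without the rule's genes (y axis, no unit), against switch-gene UMIs per 10000 (x axis, log); dashed lines are the boundaries of the ranges and orange points the 79 cells with a STRA8 UMI. Separate clouds of cells appear, and 72 of the STRA8 cells lie in the upper one.

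STRA8 divided the middle and high ranges further. The 73 cells there with a STRA8 UMI had a median of 12115 UMIs and the 247 without one 14436. With STRA8 used to split them, 658 of 8297 genes were at least 2-fold higher in STRA8 cells (7.93%) and 439 lower (5.29%), or 492 and 589 with TMM scaling. At 1.5-fold 18.2% were higher and 13.6% lower.

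Meiotic genes stood on the higher side, where 16 of 23 measured were at least 1.5-fold higher in STRA8 cells and none lower (median log2 ratio 1.05). The list also rose without this split. In the high against the low range 13 of 21 were higher and 4 lower (0.85), beside 27.5% and 28.6% of all genes. REC8 stood at 302 CPM with and 17.8 without STRA8, a ratio of 17.0 (13.0 to 22.5). BHMG1, the older symbol of the gene for STRA8's partner MEIOSIN, stood at 132 and 24.3 CPM (5.42, 4.12 to 7.15). MEIOC stood at 738 and 175 CPM (4.22, 3.79 to 4.69), and SYCE3, of the synaptonemal complex that joins paired chromosomes, at 685 and 192 (3.57, 3.21 to 3.96). CCNB1IP1, a crossover factor, had a ratio of 4.38 (3.61 to 5.32). SCML1, a Polycomb-like gene (7.84, 6.36 to 9.70), and PEG10, an imprinted gene of retrotransposon origin (12.6, 8.77 to 18.4), were also among the highest. The list of X-linked cancer/testis genes gave 9 higher and none lower of 14. TSPYL2 had a ratio of 4.15 (3.46 to 4.98). DMC1, the meiotic recombinase, stood at only 54.2 CPM against 17.3, and SYCP1, the filament of the synaptonemal complex, at 15.3 against 20.4.

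Genes of mitosis stood on the lower side, with 24 of 25 G2 and M phase genes at least 1.5-fold lower in STRA8 cells and none higher (-1.51). UBE2C, a ubiquitin carrier of anaphase, stood at 14.3 against 164 CPM (0.0871 times, 0.0473 to 0.147). CCNA2 stood at 30.7 against 243, the mitotic kinase gene PLK1 at 28.6 against 200 and MKI67 at 185 against 739 (0.25 times, 0.214 to 0.291). In the STRA8 group, the 5 cells with most UMIs of each gene held 64.3% of UBE2C, 78.6% of PLK1 and 60.2% of MKI67 UMIs. The shares in the other group were 13.1%, 11.5% and 14.8%. Fewer cells and fewer UMIs raise such a share, and the groups held 73 and 247 cells. The shares therefore do not compare the spread between cells. G1 and S phase genes were mixed, 3 higher and 5 lower of 25: PCNA stood at 592 against 702 CPM, and CCNE2, a cyclin of S phase entry, had a ratio of 2.64 (2.01 to 3.47). CDKN2D had a ratio of 3.06 (2.67 to 3.50). Markers of peritubular myoid cells moved with this split, at 283 CPM summed with and 40.5 without STRA8 (all 5 measured higher, ACTA2 at 115 against 9.16), and spermatid markers at 1964 and 6154. Their part in the result was not tested.

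**Figure D4:**
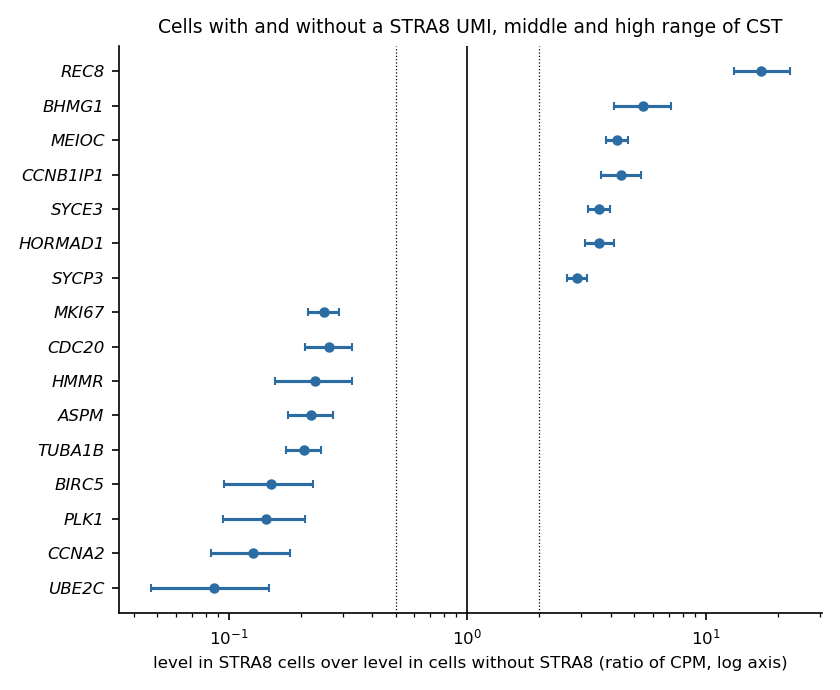
Ratio of the level in 73 STRA8 cells to that in 247 cells without STRA8, middle and high ranges of CST (x axis, log), for 7 meiotic and 9 mitotic genes; bars are exact 95% intervals for counting error, the solid line marks equal levels and dotted lines 2-fold. All meiotic genes drawn lie right of 2-fold, REC8 farthest at 17.0, and all mitotic genes left of it, UBE2C farthest at 0.0871. The genes drawn were taken from those named for large ratios in this comparison, so genes nearer equality, such as SYCP1, are not shown.

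For the following stage, the 77 CST cells with at least 2 DMC1 UMIs outside the gate were used, with a median of 10168 UMIs. Of 9092 genes, 1929 were at least 2-fold higher in members (21.2%) and 1878 lower (20.7%). At 1.5-fold 31.8% were higher and 29.6% lower. The meiotic list, without DMC1, gave 23 lower and 1 higher of 26 in members. DMC1 picked the compared cells, so this direction is partly set by the selection. SYCP1 stood at 67.8 CPM in members and 1954 in DMC1 cells, RAD51AP2, related to a recombination factor, at 23.1 and 2559, SYCP2 at 32.5 and 928, and SPDYA, an activator of CDK2, at 28.0 and 546. The MEIOC level of the STRA8 cells, 738 CPM, was near the 733 of DMC1 cells, and HORMAD1, a protein of meiotic chromosome axes, stood at 406 in STRA8 and 1111 in DMC1 cells. The piRNA pathway gave 16 lower and 1 higher of 19, with PIWIL1 at 27.3 CPM in members and 267 in DMC1 cells.

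Spermatogonial genes were lower in the DMC1 cells. These cells were taken from outside the gate that members passed, so this direction too is partly set by the selection. All 11 undifferentiated genes measured were at least 1.5-fold higher in members. CCND1 stood at 180 CPM in members and 2.71 in DMC1 cells, the X-linked homeobox gene RHOXF1 at 267 and 4.52, SOHLH1 at 199 and 7.24, UCHL1, a ubiquitin hydrolase of spermatogonia, at 167 and 5.43, and GPX1, a peroxide-reducing enzyme, at 203 and 0.905. RBM3 stood at 593 and 89.6 CPM (ratio 6.62, 5.43 to 8.16), whereas CIRBP stood at 697 and 899. DNMT1 stood at 271 CPM in DMC1 cells and 231 in all members.

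A wider prophase gate on 7 meiotic genes took 616 CST cells and 3 UAT cells. Its cells had DMC1 at 3.31 CPM, CCNA1, a cyclin of late spermatocytes, at 768 and LDHC, the germline lactate dehydrogenase, at 4252, so they lay later than early prophase. Against them 4452 of 9220 genes were at least 2-fold higher in members (48.3%) and 2258 lower (24.5%). TMM scaling, with a factor of 1.15 on the log2 scale, turned the counts to 1673 and 3589, and no gene is read from this comparison.

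Members of UAT were close to the rest of their gate on most genes. Against the 111 other gate cells of UAT, 94 of 8073 genes were at least 2-fold higher (1.16%) and 65 lower (0.805%), or 125 and 50 with TMM scaling. MKI67 had a ratio of 3.90 (2.95 to 5.26), TOP2A 2.00 (1.70 to 2.37) and RRM2, a subunit of ribonucleotide reductase, 5.25 (2.58 to 12.4). For TOP2A the log2 ratio was -0.03 when cells were thinned before selection. Depth was unequal, and after thinning MKI67 was present in 23.3% of UAT members and 18.6% of the other gate cells, with overlapping intervals (15.9 to 32.0 and 11 to 28.4). Against all CST members, 656 of 8727 genes were at least 2-fold higher in UAT members (7.52%) and 1064 lower (12.2%). That comparison sets mostly low-range cells against all ranges: MEIOC stood at 20.8 CPM in UAT members and 190.3 in CST members, PNMA5 at 17.7 and 171, and CTCFL at 48.9 and 226.

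Low-range cells were therefore compared with each other, 102 of UAT (median level 1.5 per 10000) with the 161 of the CST low range (2.13). Here 194 of 8713 genes were at least 2-fold higher in UAT (2.23%) and 830 lower (9.53%). At 1.5-fold 9.24% were higher and 15.6% lower. The lower side moved with spermatid RNA, since spermatid markers summed to 24.9 CPM in abdominal and 21248 in scrotal cells. It held 201 genes when free RNA was subtracted, 532 without cells over 1% PRM1 and 276 without scored doublets. Leydig markers moved the other way, summing to 219 CPM in abdominal and 13.7 in scrotal cells, and stromal markers to 204 and 105. How far such RNA made these counts was not tested.

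Chaperone genes were higher in the abdominal low-range cells and cold-inducible genes lower. Of 20 heat-shock proteins and co-chaperones measured, 13 were at least 1.5-fold higher and none lower (median log2 ratio 0.75). HSP90AB1 had 4227 CPM in the abdominal and 1914 in the scrotal cells (2.21, 2.14 to 2.28), HSPB1, a small heat-shock protein, at 527 and 232 (2.27, 2.07 to 2.48) and AHSA1, a co-chaperone of HSP90, at 193 and 82.2 (2.35, 2.02 to 2.74). HSPH1 stood at 500 and 255 (1.96, 1.80 to 2.14). All 3 cold-inducible genes were lower, RBM3 at 137 against 425 CPM (0.323 times, 0.288 to 0.362), CIRBP at 248 and 481 (0.515 times, 0.470 to 0.563) and SRSF5 at 157 and 257 (0.610 times, 0.543 to 0.686). The rest of each gate stood at like levels, with HSP90AB1 at 4285 CPM in the abdominal and 1857 in the scrotal gate and RBM3 at 144 and 446.

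Of the stage lists in these cells, undifferentiated genes gave 1 higher and 3 lower of 17 (median log2 ratio -0.08). G2 and M phase genes gave 0 and 6 of 23 (-0.08) and meiotic genes 0 and 7 of 18 (-0.28). When cells were thinned before selection, which left 11 UAT members in all, these medians were -1.72 and -0.80. ID4 had 284 CPM in the abdominal and 301 in the scrotal cells, and MKI67 167 and 127. CCND2 stood at 81.9 against 208 CPM (0.394 times, 0.338 to 0.458).

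The 18 UAT members above the low range (median 9024.5 UMIs, 239064 UMIs in all) had levels on the side of the CST middle range for several genes. They were picked by the lower switch-gene boundary of that range, and the gate used DMRT1 and UTF1. DMRT1 stood at 711 CPM, MKI67 at 368, TOP2A at 824, CTCFL at 284, MEIOC at 184, CCND1 at 176 and ID4 at 75.3, against 589, 423, 1083, 301, 317, 226 and 58.9 in the CST middle range. UTF1 at 218 and CCND2 at 58.6 CPM stood above the 69.9 and 6.78 of that range. RBM3 stood at 289 CPM and CIRBP at 360, below the 615 and 758 of that range, and HSP90AB1 at 3890, above its 1844. STRA8 was found in 8 UAT members. Cells with at least 2 DMC1 UMIs outside the gate numbered 1 in UAT and 77 in CST.

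**Figure D5:**
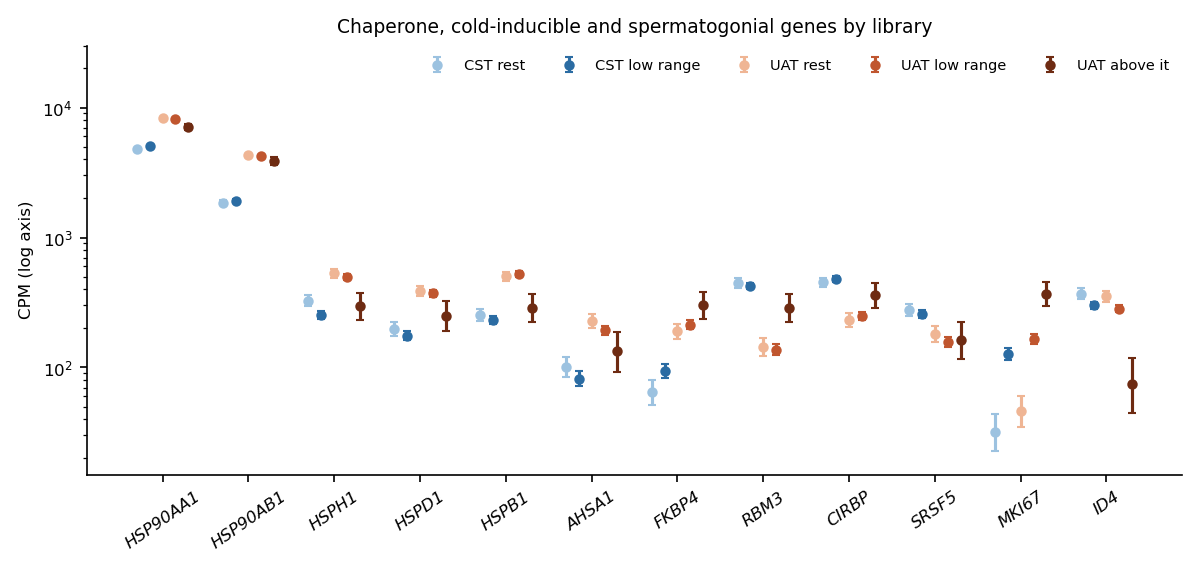
Levels in CPM (y axis, log) of 12 genes in CST rest and low range (blue) and in UAT rest, low-range members and the 18 members above it (orange to brown); bars are exact 95% Poisson intervals. HSP90AB1, HSPB1 and AHSA1 lie higher and RBM3, CIRBP and SRSF5 lower in UAT rest and low-range cells than in both CST groups, while MKI67 is higher in the members of each library than in its rest.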

How the data were processed

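Values are UMI counts per gene and barcode in 2 deposited matrices, made by the authors with Cell Ranger (5.0.0 per the file headers, 3.0.1 per the submitters' processing notes, which name mm10 as the build, although the gene names are those of macaque). Of 28845 features, 11526 were LOC identifiers. RefSeq's table for the organism matched 5093 of these to an entry and gave 721 of them a symbol. Members, gene lists and comparisons were chosen with earlier results of these data known. Counts were summed over the cells of a group and given as CPM. A gene was measured with at least 30 UMIs in both groups together and 20 CPM in one, and rule genes were left out. Ratios compare CPM. A list's median log2 ratio uses a pseudocount of 10 CPM, and its 1.5-fold calls use the plain ratio of CPM. Each position having 1 library, nothing was tested and p-values are absent. The naming rule asked for 100 CPM, 30 UMIs and no less than the level of all barcodes with 500 genes, each in the group where the gene is higher. It took 12 genes per direction, ranked by the end of the interval closer to equality, up to 4 per list with the largest log2 ratio, and all cold-inducible genes. Other genes, such as CCND1, SOHLH1, PGK1 and LDHC, were picked after their values were seen, as were the comparisons of ranges, STRA8 cells and DMC1 cells. Scored doublets (55 of 481 CST members, 10 of 120 of UAT) were kept in the main values. Their number per library was set in advance, at 0.8% per 1000 barcodes. They were 12.0% of CST and 9.89% of UAT barcodes with at least 500 genes, and 11.4% and 8.33% of members. The calculation was tested on simulated counts that held counting error only, so that test does not cover spread between cells or libraries. Python 3.11.15 with numpy 2.4.6, scipy 1.17.1, pandas 2.3.3 and scikit-learn 1.9.0 was used.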

Additional observations from a re-analysis of the deposited data

How the results depend on the processing

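No paired analysis was possible because each position has 1 library. The cause of each shift below was not tested, unless the setting itself leaves fewer cells, UMIs or genes. Thinning to 3000 UMIs before selection left 128 CST and 11 UAT members, and a cut of 3 switch-gene UMIs left 79 in UAT. The share of gate cells with 2 switch-gene UMIs in CST and UAT was 18.7% and 1.74% at 1000 UMIs, 60.8% and 16.3% at 5000, and 76.2% and 51.9% unthinned. Counts of genes at least 2-fold apart follow, higher then lower. For CST members against the rest they were 1300 and 434 with TMM scaling and 429 and 301 at a minimum of 50 CPM, with 1290 lower against cells with no switch-gene UMI. Against the prophase gate, TMM gave 1673 and 3589, thinning 1587 and 1302, and 50 CPM 2462 higher. For UAT against CST members, thinning gave 250 higher and 50 CPM 268 and 498. Between the high and low ranges, thinning gave 146 and 128, TMM 1919 higher and 50 CPM 801 and 826. For UAT low-range cells against the CST low range, higher counts were 126 without doublets, 50 thinned and 71 at 50 CPM. Lower counts there were 276 without doublets, 467 at an identity limit of 10 per 10000, 201 with free RNA subtracted, 115 thinned, 349 at 50 CPM and 532 without cells over 1% PRM1. For STRA8 cells, thinning gave 132 higher and 50 CPM 291 and 215. For the low range against the rest, higher counts were 204 with a cut of 3 UMIs, 54 with 2 switch genes required, 188 thinned and 33 at 50 CPM. Its lower counts were 103 without doublets, 106 with the cut of 3, 105 at the identity limit of 10, 284 with free RNA subtracted, 316 thinned, 96 as a mean of cells and 14 at 50 CPM. For the middle against the high range, higher counts were 97 with the cut of 3, 362 at the identity limit of 10, 110 with free RNA subtracted, 28 thinned, 103 with TMM, 37 at 50 CPM and 104 without cells over 1% PRM1. Its lower counts were 126 at that identity limit, 96 with free RNA subtracted, 94 with TMM and 33 at 50 CPM. Against DMC1 cells, thinning gave 816 and 393 and 50 CPM 957 and 1188. For UAT members against their rest, higher counts were 62 with the cut of 3, 46 with 2 switch genes, 205 as a mean of cells and 32 at 50 CPM, and lower counts 329 thinned, 177 as a mean of cells and 18 at 50 CPM. Directions past the fold limit turned after thinning: the median log2 ratio between the high and low ranges was 0.40 for germline RNA-binding proteins and 0.21 for glycolysis, and STK31 in the middle against the high range was -0.029. Values under the fold limit that also changed sign were, after thinning, CCND2 in the low range against the rest (-0.34), TSPYL2 in the middle against the high range (-0.10) and TOP2A in UAT members against their rest (-0.03). RARA (down to -0.49), KIT signalling (-0.21), oxidative phosphorylation (-0.29) and undifferentiated genes between the low-range cells (0.06) changed sign around a value near equality. Of 1238 values of named genes under other settings 1186 kept their side of the fold limit, as did 416 of 457 list medians. The 99 gene values at a minimum of 50 CPM could not change, since that limit does not enter a gene's ratio. A minimum of 200 detected genes left the members at 481 and 120, and all 99 gene values and 34 list medians kept their side. Both settings raise the counts of values that kept their side. The genes were also named partly for large ratios in the same data. After thinning before selection, 82 of 99 gene values and 21 of 31 list medians kept their side.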
